A study of Homo sapiens with 156 samples.

Results

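MV411 cells, a human acute myeloid leukemia line, were treated for 4 days with decitabine (DAC in the labels) at 16 nM or 80 nM, and these 4 libraries were compared with the 2 day 4 libraries of cells given DMSO, the solvent. The members were chosen by cell line, compound, dose and day as the labels give them, and are 4 of the 156 libraries of the series, which covers 3 cell lines treated with inhibitors of DNMT1. Each group has 2 libraries, and the labels do not say whether these were separate cultures. The p-values therefore describe the spread between libraries, which may be technical. DAC at 3.2 nM on day 4 (2 libraries) is shown as the reference level, and GSK032, another DNMT1 inhibitor, is compared with DAC at 16 nM and at 80 nM on the same day (2 libraries each). DMSO libraries of days 1, 2 and 6, and DAC at 400 nM on day 4 (2 libraries each), are given as levels. Each group is the MV411 line itself, with no engineered change named in the labels, and cells were plated a day before treatment. Being 1 line, MV411 represents 1 patient's leukemia.

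Decitabine is a deoxycytidine analog. After uptake it is phosphorylated by deoxycytidine kinase, enters DNA during replication and traps DNMT1, the enzyme that copies cytosine methylation at CG sites onto the new strand, so that methylation is lost as cells divide. Germline genes whose promoters are kept methylated in somatic cells are known to be switched on by such loss, and myeloid leukemia cells can gain genes of maturing granulocytes and monocytes. MV411 has a monocytic phenotype, a rearranged KMT2A gene and an internal tandem duplication in FLT3.

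Values are FPKM, fragments of RNA scaled to transcript length and library size. Differences are on the log2(FPKM + 0.5) scale, which understates the change of low genes, and are given with a standard error (SE) from limma. A gene was called where its adjusted p was below 0.05 and its difference was at least 1 in size, that is 2-fold on this scale. Of 59939 genes in the table, 22007 reached an FPKM of 1 in at least 2 of the 52 MV411 libraries and were tested. The scale of the 14 day 4 libraries looked at corresponded to 47.2 to 84.2 M fragments. Cell identity was checked in the 6 libraries of DMSO, 16 nM and 80 nM. All 12 markers fixed for MV411 reached an FPKM of 1, with FLT3 at 120 to 150, MEIS1 at 62.3 to 77.6 and HOXA9 at 24.1 to 38.0. Of markers of T and NK cells, CD3E was at 0 to 0.0273 FPKM and CD2 at 0 to 0.00917, whereas CD4, which monocytic cells also carry, was at 42.8 to 82.3, NKG7 at 15.1 to 34.1 and IL7R at 1.54 to 2.90. Their part in the results was not tested.

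Sequences are shown first for genes on which the results turn, all taken from RefSeq promoters of GRCh38.p14, the assembly the deposited values name as hg38. Each is the part, within 250 bases before the most upstream RefSeq start, that lies outside the gene as GENCODE 29 annotates it. The genes TKTL1, MAGEA4 and PNMA5 had the 3 largest rises at 80 nM among the named protein-coding genes. They are shown because CG pairs, here in capitals, are the sites whose methylation DNMT1 copies.
TKTL1, chrX:154295545-154295670, + strand: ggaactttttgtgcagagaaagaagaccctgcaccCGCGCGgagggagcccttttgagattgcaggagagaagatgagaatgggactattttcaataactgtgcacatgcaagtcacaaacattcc
MAGEA4, chrX:151912224-151912473, + strand: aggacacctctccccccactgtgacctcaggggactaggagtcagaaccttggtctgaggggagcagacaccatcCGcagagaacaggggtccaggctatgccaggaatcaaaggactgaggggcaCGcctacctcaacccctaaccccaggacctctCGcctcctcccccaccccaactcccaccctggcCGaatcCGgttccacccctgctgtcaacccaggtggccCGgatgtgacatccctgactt
PNMA5, chrX:152994128-152994366, - strand: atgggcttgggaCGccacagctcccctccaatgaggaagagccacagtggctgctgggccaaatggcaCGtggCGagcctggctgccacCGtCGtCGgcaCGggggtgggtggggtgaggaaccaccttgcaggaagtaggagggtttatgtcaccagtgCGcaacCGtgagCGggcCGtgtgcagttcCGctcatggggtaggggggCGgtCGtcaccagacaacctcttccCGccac

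These letters hold 3 CG pairs before TKTL1, 6 before MAGEA4 and 15 before PNMA5. Over the full 250 bases the counts were 13, 6 and 16. Of 27305 RefSeq promoters, 1 per gene, 46.2% held at least 13 CG pairs, 61.3% at least 6 and 40.6% at least 16, so none of these windows is at the CG-rich end. The methylation of these sites was not measured in the values used here. The next sequences belong to IFIT1 and IFIT3, interferon-stimulated genes that were lower with DAC at both doses. Capitals mark matches to GAAANNGAAA, the core of the interferon-stimulated response element, on either strand.
IFIT1, chr10:89392373-89392545, + strand: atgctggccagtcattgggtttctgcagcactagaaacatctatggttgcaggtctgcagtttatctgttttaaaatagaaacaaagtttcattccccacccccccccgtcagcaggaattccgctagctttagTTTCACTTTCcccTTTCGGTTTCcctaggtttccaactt
IFIT3, chr10:89327747-89327893, + strand: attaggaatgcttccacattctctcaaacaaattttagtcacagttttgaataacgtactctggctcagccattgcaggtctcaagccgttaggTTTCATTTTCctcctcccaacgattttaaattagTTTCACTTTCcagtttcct

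Both windows hold 2 matches, read here on the opposite strand. Of the 27305 promoters 3.07% held a match within 250 bases, against 21 of the 36 interferon-list genes with a promoter (58.3%). A match is a description of letters and no evidence of binding.

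Against DMSO of day 4, 21 genes were called higher at 16 nM (0.0954% of the 22007 tested) and 85 lower (0.386%). The split was 34 higher and 59 lower without DAC 16 nM replicate 1, 22 and 52 without its replicate 2, and 42 and 117 with a pseudocount of 0.1. From DMSO of day 2, a reference chosen after the data were seen, it turned to 163 higher and 36 lower. At 80 nM the balance against DMSO of day 4 was the other way, with 384 higher (1.74%) and 157 lower (0.713%). In either direction that is 0.482% of the genes at 16 nM and 2.46% at 80 nM. At unadjusted p below 0.05 by limma, 2133 of the 22007 genes differed from DMSO at 16 nM, 4613 at 80 nM and 1129 at 3.2 nM. Between 80 nM and 16 nM 3632 did. Counts of list members at that p, given below, stand beside these. The lowest dose, 3.2 nM, already gave 49 lower calls (0.223%) and 2 higher (0.00909%). In all that was 26 calls without DMSO replicate 2, 27 without replicate 1 of DAC 3.2 nM and 34 without its replicate 2. From DMSO of day 2 the split turned to 181 higher and 14 lower. These 3 comparisons share the same DMSO libraries. Tested directly, 80 nM against 16 nM gave 217 higher calls (0.986%) and 14 lower (0.0636%). The step between the doses was thus mostly upward.

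Measured from 3.2 nM in place of DMSO, 16 nM gave 10 higher calls (0.0454%) and 1 lower (0.00454%), and 8 of these 11 genes were also called against DMSO. From the same reference 80 nM gave 389 higher (1.77%) and 54 lower (0.245%). This reference was chosen after the data were seen. At 16 nM a single lower call was thus left when the lowest dose served as reference. Of the genes called higher at 80 nM, 23 were on the X chromosome (5.99%, against 3.05% of the genes tested). In the authors' deposited table of log2 fold changes, all 106 genes called at 16 nM and all 541 called at 80 nM had the same sign. That table rests on the same libraries.

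ALDH1A3, an aldehyde dehydrogenase that makes retinoic acid, on chromosome 15 (100877714 to 100916626), rose at both doses. It read 1.61 and 1.72 FPKM in DMSO, 2.90 and 3.47 at 3.2 nM, 7.71 and 7.72 at 16 nM, and 11.7 and 11.6 at 80 nM. No group overlapped another, and the order followed the dose. The log2 difference from DMSO was 1.93 ± 0.21 at 16 nM (adjusted p = 4.1e-06) and 2.50 ± 0.21 at 80 nM (adjusted p = 9.2e-10). The step from 16 nM to 80 nM was 0.57 ± 0.21 and not called (adjusted p = 0.14). Most of the gain of this gene was thus reached by 16 nM.

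CHI3L1, a secreted chitinase-like glycoprotein of macrophages and neutrophils, rose at both steps. It read 7.85 and 9.06 FPKM in DMSO, 7.66 and 6.78 at 3.2 nM, 20.4 and 20.7 at 16 nM, and 91.5 and 92.5 at 80 nM. The DMSO and 3.2 nM libraries lay close together and the higher doses stood clear of them and of each other. Differences from DMSO were 1.24 ± 0.15 at 16 nM (adjusted p = 7.9e-06) and 3.37 ± 0.15 at 80 nM (adjusted p = 1.0e-15), and the step between the doses was 2.14 ± 0.15. MNDA, a nuclear antigen of myeloid cells, followed the same order, with 1.97 and 2.24 FPKM in DMSO, 5.09 and 6.00 at 16 nM, and 14.7 and 14.0 at 80 nM. Its differences were 1.21 ± 0.14 and 2.52 ± 0.14. From DMSO of day 2, at 3.07 and 3.01, the 16 nM difference was 0.77, short of a call. CES1, a carboxylesterase of monocytes and macrophages, read 20.6 and 12.7 in DMSO, 43.0 and 41.7 at 16 nM, and 121 and 98.7 at 80 nM, with a step of 1.36 ± 0.24 between the doses.

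MYBPH, a myosin-binding protein of muscle, read 33.1 and 40.3 FPKM in DMSO, 42.8 and 51.8 at 3.2 nM, 96.8 and 111 at 16 nM, and 161 and 136 at 80 nM. It rose by 1.49 ± 0.20 at 16 nM and 2.01 ± 0.20 at 80 nM. PLK2, a polo-like kinase and p53 target, read 10.8 and 10.0 FPKM in DMSO, 11.1 and 12.4 at 3.2 nM, 23.0 and 23.2 at 16 nM, and 29.3 and 27.2 at 80 nM. It rose by 1.12 ± 0.17 (adjusted p = 0.00028) and was also called at 80 nM (adjusted p = 9.7e-07). Against 3.2 nM the PLK2 difference at 16 nM was 0.94, short of a call. From DMSO of day 2, at 14.5 and 13.5 FPKM, it was 0.70 at 16 nM and 0.99 at 80 nM, and both calls ended. ALDH1A3, CHI3L1, MNDA, MYBPH and CES1 were called higher at 16 nM against 3.2 nM as well (adjusted p = 0.013, 2.8e-06, 1.7e-05, 0.01 and 0.022).

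**Figure D1:**
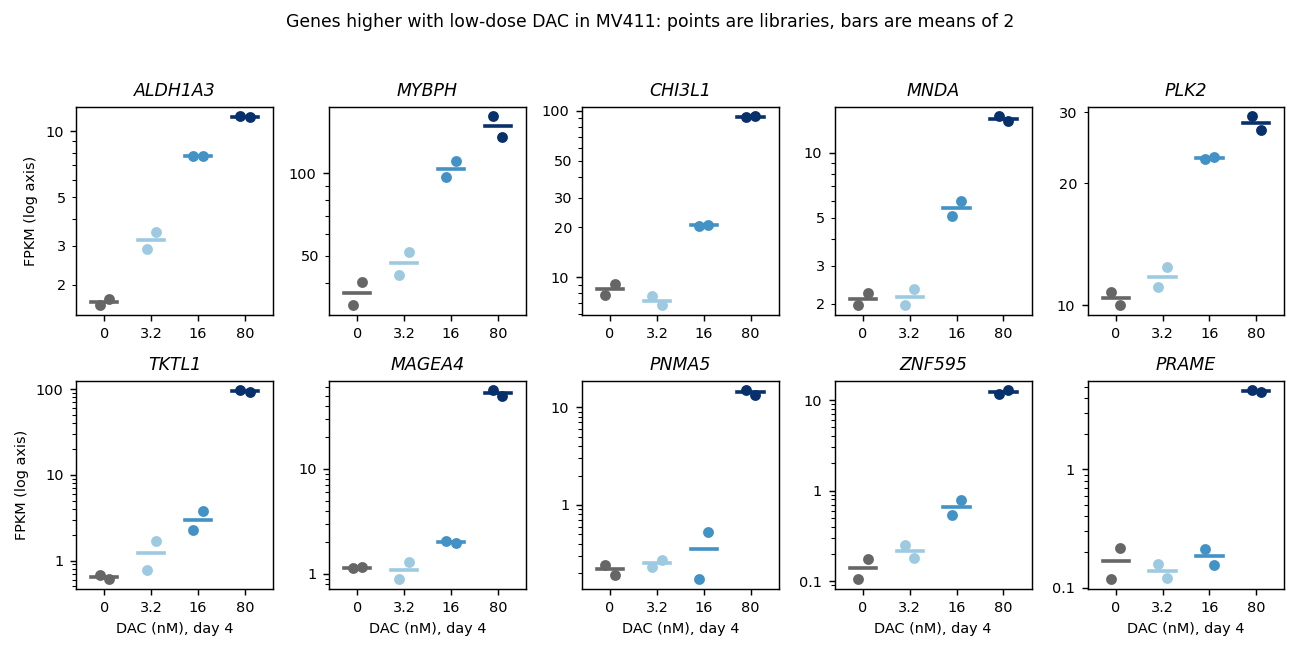
FPKM on a log axis against DAC dose at day 4 for 10 genes, each point a library and each bar the mean of 2. ALDH1A3, MYBPH, CHI3L1, MNDA and PLK2 (upper row) stand above DMSO at 16 nM, whereas MAGEA4, PNMA5, ZNF595 and PRAME (lower row) rise between 16 nM and 80 nM, as TKTL1 does for most of its range.

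Germline genes rose between the doses. Of 29 cancer-testis antigens, genes normally expressed in testis and silent in most adult tissue, 24 passed the filter. At 16 nM 1 was called higher and at 80 nM 8, all without a lower call, and the median difference was 0.03 and 0.71 beside a median of 0 over all genes tested. In the direct test 9 members rose between 16 nM and 80 nM. The filter admits a silent gene only where some of the 52 libraries express it. Shares of tested members are for that reason partly set by the filter.

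TKTL1, a transketolase-like gene of testis on chromosome X (154295671 to 154330350, + strand), read 0.683 and 0.608 FPKM in DMSO, 0.783 and 1.67 at 3.2 nM, 2.25 and 3.77 at 16 nM, and 96.4 and 92.6 at 80 nM. The 80 nM libraries stood far above all others. Its log2 difference was 1.58 ± 0.32 at 16 nM (adjusted p = 0.0055) and 6.37 ± 0.32 at 80 nM (adjusted p = 1.7e-14). The 16 nM call ended without replicate 2 of DAC 16 nM (1.26, adjusted p = 0.186) or without DMSO replicate 2 (1.53, adjusted p = 0.0736). At 400 nM the gene read 174 and 158 FPKM.

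MAGEA4, an antigen of the melanoma antigen family on chromosome X (151912509 to 151925170, + strand), read 1.15 ± 0.0164 FPKM in DMSO (SD, n = 2) and 2.07 and 1.97 at 16 nM, then 56.1 and 49.7 at 80 nM. The difference at 16 nM was 0.61 ± 0.23 (adjusted p = 0.28), and at 80 nM 5.01 ± 0.23 (adjusted p = 2.4e-15). An antisense gene, MAGEA4-AS1, overlaps its start, and whether strand was used in counting is not given in the sources used here. PNMA5, of the paraneoplastic antigen family, read 0.244 and 0.193 FPKM in DMSO, 0.174 and 0.526 at 16 nM, and 14.9 and 13.5 at 80 nM. Its 16 nM libraries lay on both sides of the DMSO libraries, and the step to 80 nM was 4.15 ± 0.20 (adjusted p = 2.8e-14). PRAME, a melanoma antigen on chromosome 22, behaved alike, with 0.118 and 0.217 FPKM in DMSO, 0.212 and 0.156 at 16 nM, and 4.65 and 4.55 at 80 nM (step 2.90 ± 0.17).

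The other cancer-testis members called at 80 nM were MAGEA1, MAGEB2, PAGE5 and RHOXF2. ZNF595, which encodes a zinc-finger protein and lies on chromosome 4 (53285 to 88211), read 0.105 and 0.176 FPKM in DMSO, 0.531 and 0.785 at 16 nM, and 11.8 and 12.8 at 80 nM. Its 16 nM libraries were above DMSO, but the difference of 0.85 ± 0.18 was below the size required for a call. At 80 nM the difference was 4.32 ± 0.18. HIST1H1T, the testis-specific linker histone, read 0.756 and 0.948 FPKM in DMSO, 0.331 and 0.437 at 16 nM, and 25.1 and 23.8 at 80 nM, so that the 16 nM libraries were the lowest of these groups. The step between the doses was 4.82 ± 0.23.

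Of 37 genes of germ-cell RNA metabolism and meiosis, 25 were tested, none was called at 16 nM by limma (0 higher and 2 lower at unadjusted p below 0.05), and 5 were called higher at 80 nM. They were TDRD9, MAEL, PIWIL2, PIWIL4 and GTSF1, which belong to the piRNA pathway that silences transposons in germ cells. All 5 were also higher at 80 nM than at 16 nM. TDRD9, a Tudor-domain helicase, read 0.288 and 0.309 FPKM in DMSO, 0.048 and 0.157 at 16 nM, and 1.64 and 2.36 at 80 nM, a step of 2.04 ± 0.20. GTSF1 was already expressed, with 6.20 and 6.22 FPKM in DMSO, 6.65 and 8.32 at 16 nM and 19.5 and 16.0 at 80 nM, a step of 1.19 ± 0.15. The medians of the list were -0.03 at 16 nM and 0.19 at 80 nM.

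Genes of antigen presentation were described by HLA class. Of 13 tested HLA class II genes, which present peptides to CD4 T cells, 7 were called higher at 80 nM and none at 16 nM by limma (5 higher and 0 lower at unadjusted p below 0.05). Median differences were 0.33 and 1.06. The 7 were CIITA, the master transactivator of the class, HLA-DRA, HLA-DRB5, HLA-DPA1, HLA-DPB1, HLA-DQB1 and HLA-DMA. Reads of HLA genes can be shared between near-identical copies, so levels of single genes are uncertain.

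HLA-DRA read 16.5 and 16.1 FPKM in DMSO, 21.8 and 25.5 at 16 nM, 51.5 and 50.0 at 80 nM, and 131 and 153 at 400 nM. Its step from 16 nM to 80 nM was 1.09 ± 0.19 (adjusted p = 0.00052). HLA-DPA1 read 1.71 and 1.54 in DMSO, 1.67 and 2.84 at 16 nM, and 8.00 and 8.23 at 80 nM, a step of 1.68 ± 0.24. Of 15 class I genes none was called at either dose by limma (4 and 8 higher, 0 lower, at unadjusted p below 0.05), with medians of 0.18 and 0.33.

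Myeloid genes followed at 80 nM. Of 14 tested genes listed for primary granules, the storage granules of neutrophil precursors, 4 were called higher, against none at 16 nM by limma (3 higher and 0 lower at unadjusted p below 0.05). MPO, the myeloperoxidase, read 3.40 and 2.45 FPKM in DMSO, 3.03 and 3.73 at 16 nM, and 15.2 and 15.5 at 80 nM, a difference of 2.23 ± 0.30 from DMSO. The 16 nM and DMSO libraries overlapped, and the 80 nM libraries stood clear. PRTN3, proteinase 3, was abundant throughout, with 679 and 656 FPKM in DMSO, 1360 and 1270 at 16 nM and 2400 and 1800 at 80 nM, and it rose by 1.64 ± 0.23 at 80 nM. Its 16 nM difference of 0.97 ± 0.23 was just short of a call. ELANE, neutrophil elastase, rose by 1.25 ± 0.20. PRG2, which is on the list although it encodes the eosinophil major basic protein, rose by 2.80 ± 0.44. The DMSO level of some of these genes moved with the day of culture. PRTN3 in DMSO read 1200 and 1080 FPKM at day 2, and ELANE 326 and 305. From those libraries the 80 nM difference was 0.87 for PRTN3 and 0.57 for ELANE, so both calls ended.

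Of 25 tested monocyte and macrophage genes 4 were called higher at 80 nM (LYZ, CD68, ITGAM and STAB1) and 1 lower (FCER1G). At 16 nM FCER1G was the only call. LYZ, lysozyme, read 809 and 677 FPKM in DMSO, 967 and 1000 at 16 nM, and 1710 and 1750 at 80 nM, a difference of 1.22 ± 0.17 at 80 nM. In DMSO of day 2 it read 1240 and 1400, and from that reference the 80 nM difference was 0.39 (adjusted p = 0.0726), no longer a call. CD68, a lysosomal protein of macrophages, read 17.9 and 16.4, then 26.1 and 23.3, then 60.6 and 49.1. STAB1, a scavenger receptor of macrophages, read 0.523 and 0.414 in DMSO, 0.356 and 0.403 at 16 nM, and 11.0 and 15.8 at 80 nM, a step of 3.96 ± 0.29 between the doses. Among 24 tested myeloid transcription factors 2 were called higher at 80 nM (CEBPE and ID1) and 4 lower (IRF4, KLF6, EGR3 and ATF3), with a median of -0.04. At 16 nM the same 4 were called lower and none higher, with a median of -0.15. ATF3 in DMSO read 1.96 and 1.68 FPKM at day 2, 4.10 and 2.79 at day 4 and 9.15 and 11.4 at day 6. At 16 nM it read 1.39 and 1.50. CEBPE, which drives late granulocyte maturation, read 0.936 and 0.854 in DMSO and 2.80 and 2.87 at 80 nM. NFE2, a factor of megakaryocytes and red cells, read 2.45 and 2.77 in DMSO, 5.00 and 5.99 at 16 nM, and 14.5 and 13.8 at 80 nM.

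Markers of other cell types were summed in the same libraries. Of 20 erythroid and megakaryocyte markers 6 reached an FPKM of 1 and 5 were at 0 in all 6 libraries. Their sum was 22.5 to 23.0 in DMSO, 23.2 to 26.6 at 16 nM and 33.3 to 37.6 at 80 nM. At 80 nM KLF1 and NFE2 were called higher and none lower. NFE2 read 2.45 to 2.77 in DMSO and 13.8 to 14.5 at 80 nM. TFR2 read 4.39 to 4.42 and 2.92 to 3.63, and GATA1 was at most 0.0746. Of 18 T and NK cell markers 4 reached an FPKM of 1, with sums of 74.9 to 84.7, 78.5 to 86.9 and 88.9 to 110. Most of these sums was CD4, also a marker fixed for MV411, at 42.8 to 44.9 in DMSO and 69.6 to 82.3 at 80 nM. NKG7 read 28.1 to 34.1 and 15.1 to 24.0. Sums of the 14 B cell markers (4 at an FPKM of 1 or more) were 7.98 to 13.0, 10.3 to 11.6 and 11.8 to 12.5. The 14 epithelial markers (4 at that level) gave 14.3 to 17.3, 16.1 to 17.8 and 17.9 to 25.1. Of these KRT8 read 3.01 to 3.61 in DMSO and 7.51 to 11.2 at 80 nM. The 16 fibroblast markers (3 at that level) gave 225 to 235, 165 to 173 and 203 to 227. Nearly all of that was VIM, at 219 to 229, 161 to 168 and 197 to 221. The 12 neuronal markers (1 at that level) gave 2.47 to 3.07, 2.28 to 2.39 and 2.75 to 3.11. Their part in the myeloid rises was not tested. In bulk RNA, more cells of a type and more RNA per cell cannot be told apart.

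Other genes that rose mainly between the doses included CDKN1C, an imprinted inhibitor of cyclin-dependent kinases, and the linker histone HIST1H1A. CDKN1C read 0.751 and 0.725 FPKM in DMSO, 0.665 and 0.868 at 16 nM, and 2.44 and 3.50 at 80 nM, a step of 1.44 ± 0.24. It was the only call among 16 tested imprinted genes. HIST1H1A read 18.0 and 15.7, then 16.4 and 15.8, then 64.4 and 57.0, a step of 1.88 ± 0.15. It was also the only 1 of 23 tested replication-linked histone genes above its DMSO level at 80 nM. The other 22 were below it, and the list's median was -0.48. None was called lower, but 17 were lower at unadjusted p below 0.05 by limma. Over all 22007 genes tested 4613 were at that p, in either direction.

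Genes of cholesterol and fatty acid synthesis fell with DAC, more of them at 80 nM than at 16 nM. Of 28 tested genes 3 were called lower at 16 nM and 22 at 80 nM, none higher at either dose, with medians of -0.66 and -1.29. At 3.2 nM none was called by limma (0 higher and 7 lower at unadjusted p below 0.05) and the median was -0.27. Against 3.2 nM 15 remained lower at 80 nM and none at 16 nM. Between 16 nM and 80 nM 5 members fell (SCD, FADS2, SREBF1, INSIG1 and ABCA1). ABCA1, which exports cholesterol from cells, is a member that acts against the list's name. Its DMSO level moved with the day of culture. It read 1.69 and 1.11 FPKM at day 2, 2.78 and 2.22 at day 4, and 4.39 and 3.07 at day 6. With DAC at 80 nM it read 0.648 and 0.713. DMSO levels of other days are not given here for the other members.

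SCD, the stearoyl-CoA desaturase that makes monounsaturated fatty acids, on chromosome 10 (100347124 to 100364834), read 133 and 151 FPKM in DMSO, 115 and 115 at 3.2 nM, 82.4 and 66.0 at 16 nM, and 30.4 and 21.9 at 80 nM. The groups did not overlap and were ordered by dose. The difference at 16 nM was -0.94 ± 0.24, just short of a call, and at 80 nM -2.44 ± 0.24 (adjusted p = 2.7e-08), with a step of -1.50 ± 0.24 (adjusted p = 0.00015). FADS2, a desaturase of polyunsaturated fatty acids, read 139 and 128 in DMSO, 76.2 and 51.2 at 16 nM, and 30.7 and 20.5 at 80 nM, a difference of -2.38 ± 0.34 at 80 nM.

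In the cholesterol branch HMGCS1, the synthase at the entry of the mevalonate pathway, read 75.3 and 90.5 FPKM in DMSO, 38.5 and 52.3 at 3.2 nM, 31.3 and 30.1 at 16 nM, and 19.2 and 18.3 at 80 nM. Its differences were -1.41 ± 0.29 at 16 nM (adjusted p = 0.0055) and -2.11 ± 0.29 at 80 nM (adjusted p = 4.7e-06). DHCR7, the last enzyme of cholesterol synthesis, read 25.1 and 28.9, then 11.4 and 9.39 at 16 nM, then 6.25 and 3.50 at 80 nM. INSIG1, the sterol-responsive brake on the pathway, read 184 and 215, then 109 and 89.3, then 47.8 and 41.1. DHCR7 and INSIG1 were called lower at both doses (-2.40 ± 0.34 and -2.15 ± 0.25 at 80 nM).

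**Figure D2:**
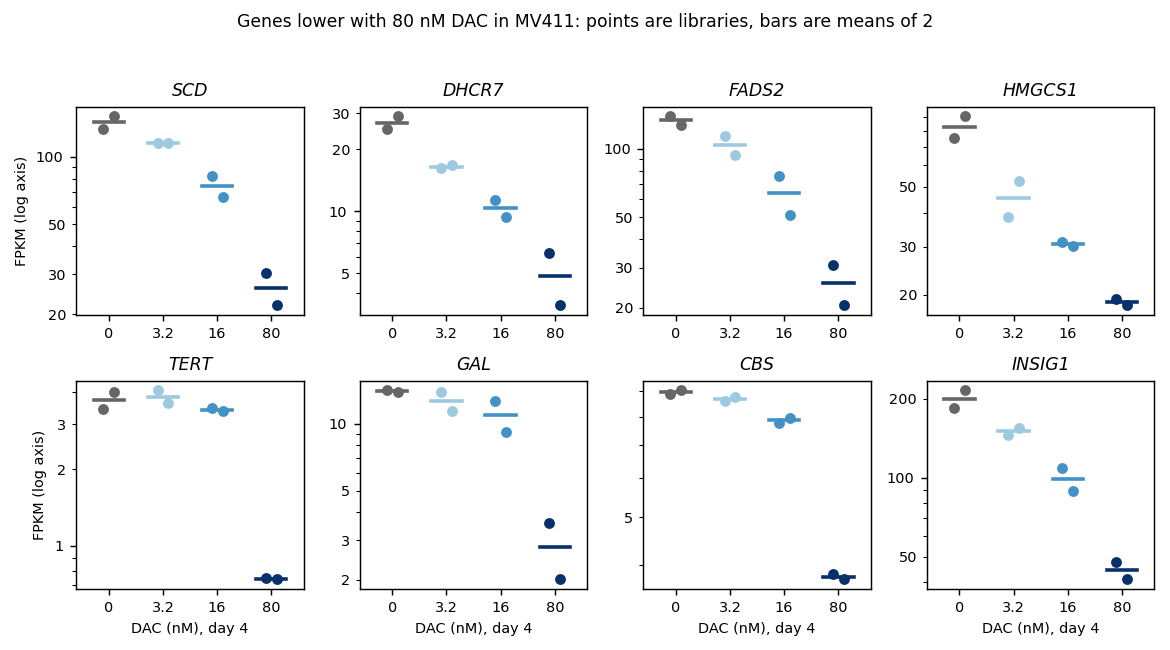
FPKM on a log axis against DAC dose at day 4 for 8 genes that fell at 80 nM, each point a library and each bar the mean of 2. SCD, DHCR7, FADS2, HMGCS1 and INSIG1 step down over the doses, whereas TERT, GAL and CBS stay near DMSO to 16 nM and are low at 80 nM.

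Some genes fell at 80 nM with no call at 16 nM. TERT, the catalytic subunit of telomerase, on chromosome 5 (1253147 to 1295069), read 3.44 and 4.02 FPKM in DMSO, 4.07 and 3.62 at 3.2 nM, 3.46 and 3.39 at 16 nM, and 0.746 and 0.741 at 80 nM. Its difference at 16 nM was -0.11 ± 0.22 and its step to 80 nM -1.66 ± 0.22 (adjusted p = 1.0e-05). TERT was the only call among 11 tested telomerase genes. GAL, which encodes the neuropeptide galanin, read 14.1 and 13.8 in DMSO, 12.7 and 9.20 at 16 nM, and 3.58 and 2.01 at 80 nM, a step of -1.82 ± 0.22. CBS, cystathionine beta-synthase, read 8.87 and 9.04, then 7.78 and 7.95, then 3.84 and 3.75, a difference of -1.14 ± 0.13 from DMSO at 80 nM.

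The genes lower at 16 nM included interferon-stimulated genes. Of 45 tested, 9 were called lower at 16 nM (IFI44, IFIT1, IFIT2, IFIT3, OAS1, OAS2, OAS3, USP18 and CXCL10) and none higher, with a median of -0.33. At 80 nM 8 were lower and 2 higher (IFITM3 and LGALS3BP), and at 3.2 nM 8 were lower. IFIT1, an antiviral RNA-binding protein on chromosome 10 (89392546 to 89406486, + strand), read 2.38 and 1.44 FPKM in DMSO, 0.0951 and 0.160 at 3.2 nM, 0.105 and 0.156 at 16 nM, and 0.104 and 0.146 at 80 nM. The DAC libraries overlapped whatever the dose and lay below DMSO. Differences from DMSO were -1.91 ± 0.21 at 3.2 nM, -1.91 ± 0.21 at 16 nM and -1.92 ± 0.21 at 80 nM. Against 3.2 nM none of the 45 was called at 16 nM, with a median of 0.06.

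The DMSO level of these genes moved with the day of culture. IFIT1 in DMSO read 0.0278 and 0.0947 FPKM at day 1, 0.0399 and 0.0871 at day 2, 2.38 and 1.44 at day 4, and 7.88 and 11.1 at day 6. The DAC libraries of day 4 were thus near the DMSO libraries of days 1 and 2. IFIT3 in DMSO read 0.127 and 0.0781 at day 2, 2.92 and 1.90 at day 4 and 8.37 and 11.9 at day 6, against 0.150 and 0.123 at 16 nM. OAS1, a synthase whose product activates RNase L, read 0.559 and 0.785 at day 2, 3.14 and 4.49 at day 4 and 13.7 and 18.5 at day 6, against 0.539 and 0.995 at 16 nM. IFIT2 differed from DMSO of day 4 by -2.28 ± 0.24 at 16 nM and -2.13 ± 0.24 at 80 nM, and IFI44 by -1.81 ± 0.24 at 16 nM. With the day 2 DMSO libraries as reference, chosen after the data were seen, the 16 nM difference was 0.16 for IFIT1, 0.08 for IFIT3 and 0.10 for OAS1. An effect of DAC on these genes and a different state of the day 4 DMSO cultures cannot be told apart.

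The stress-response genes TRIB3 and DDIT4 also climbed in DMSO from day 2 to day 6. Unlike the interferon genes above, at 16 nM both lay below DMSO of day 2. From that reference the 16 nM call of TRIB3 held and that of DDIT4 ended (-0.95). TRIB3, a pseudokinase induced by the factor ATF4, read 11.2 and 8.37 FPKM in DMSO at day 2, 20.0 and 20.1 at day 4 and 70.0 and 75.0 at day 6. With DAC at day 4 it read 4.16 and 6.43 at 3.2 nM, 4.43 and 4.54 at 16 nM, and 4.75 and 4.64 at 80 nM. The difference from DMSO was -2.04 ± 0.30 at 16 nM (adjusted p = 0.00014). DDIT4, an inhibitor of mTORC1, read 18.6 and 10.0 at day 2, 29.8 and 32.3 at day 4 and 85.3 and 101 at day 6 in DMSO, and 7.11 and 6.57 at 16 nM. Among 21 tested genes of serine synthesis and ATF4 targets, 3 were called lower at 16 nM (DDIT4, TRIB3 and SLC7A11) and 5 at 80 nM (DDIT4, TRIB3, CHAC1, SLC7A5 and CBS), none higher.

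Of 21 tested genes of NF-kB signalling and inflammation, 4 were called lower at 16 nM (IL1B, CCL3, CCL5 and ICAM1) and the same 4 with TNFAIP3 at 80 nM, none higher. At 3.2 nM CCL3, CCL5 and ICAM1 were already called lower. CCL3 in DMSO read 1.21 and 1.32 FPKM at day 2, 4.60 and 3.48 at day 4 and 5.49 and 8.64 at day 6. CCL5 in DMSO read 15.7 and 13.5, 31.4 and 37.7, and 85.5 and 91.4 on those days. At 16 nM CCL3 read 0.632 and 0.663, and CCL5 14.2 and 17.8. Here too, an effect of DAC and a different state of the day 4 DMSO cultures cannot be told apart. PDGFA, a platelet-derived growth factor chain, read 13.5 and 12.5 FPKM in DMSO, 4.28 and 4.83 at 3.2 nM, 2.25 and 2.47 at 16 nM, and 2.59 and 2.56 at 80 nM. EGR3, an early growth response factor, read 2.12 and 2.34, then 0.245 and 0.422, then 0.0372 and 0.0654, then 0.253 and 0.178. GRIP1, a scaffold protein of glutamate receptors, declined in DMSO. Its DMSO level was 32.9 and 29.9 at day 2, 26.4 and 20.9 at day 4 and 21.4 and 14.1 at day 6, and with DAC it read 11.7 and 9.42 at 3.2 nM, 4.68 and 4.97 at 16 nM, and 8.12 and 3.38 at 80 nM. The difference at 16 nM was -2.17 ± 0.26 (adjusted p = 7.9e-06). C6orf223 read 4.75 and 5.58 in DMSO of day 4, 1.09 and 2.23 at 3.2 nM and 0.518 and 0.433 at 16 nM. In DMSO it read 2.63 and 2.07 at day 2 and 6.86 and 12.0 at day 6. From DMSO of day 2 the 16 nM calls of PDGFA, EGR3, GRIP1 and C6orf223 held. From DAC 3.2 nM they ended, at -0.82, -0.59, -1.05 and -1.10.

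**Figure D3:**
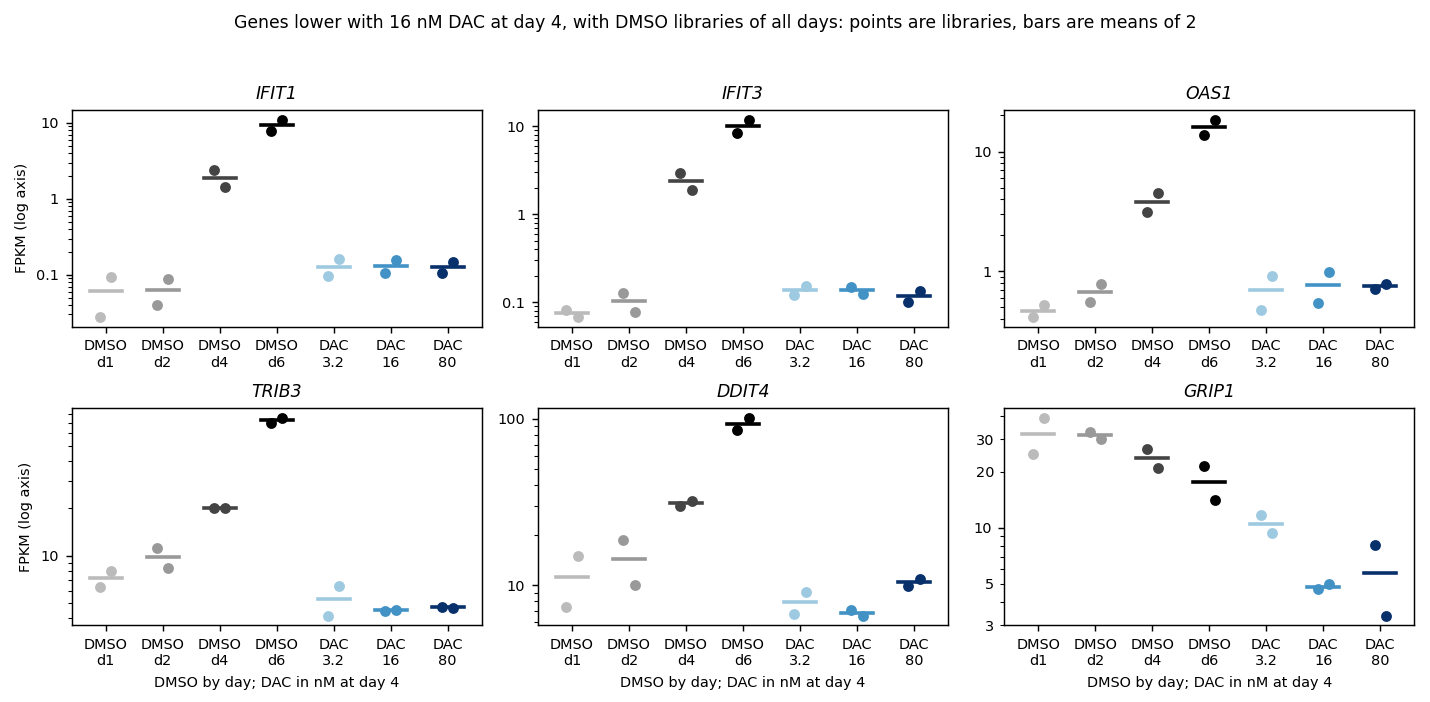
FPKM on a log axis for 6 genes called lower at 16 nM, in DMSO libraries of days 1, 2, 4 and 6 (grey to black) and in DAC libraries of day 4 (blue), each point a library and each bar the mean of 2. IFIT1, IFIT3, OAS1, TRIB3 and DDIT4 climb in DMSO from day 2 to day 6 and stay low with DAC, whereas GRIP1 declines in DMSO and is lower with DAC.

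CD52, GATA2 and ICAM5 were called lower at 16 nM and higher at 80 nM than at 16 nM. CD52, a surface glycoprotein of lymphocytes and monocytes, read 9.93 and 10.5 FPKM in DMSO, 2.73 and 3.56 at 3.2 nM, 2.93 and 3.59 at 16 nM, and 9.47 and 8.18 at 80 nM. GATA2, a factor of blood stem and progenitor cells, read 3.89 and 6.26, then 1.05 and 1.64, then 1.75 and 1.98, then 6.84 and 7.47. ICAM5, a cell adhesion molecule, read 2.42 and 2.33, then 0.934 and 0.844, then 0.954 and 0.824, then 2.22 and 2.72. The 80 nM libraries lay near or above DMSO of day 4, and the 3.2 nM libraries were low with those of 16 nM. CD52 in DMSO read 4.23 and 4.25 FPKM at day 2 and 29.9 and 43.5 at day 6. With the day 2 DMSO libraries as reference, chosen after the data were seen, the 16 nM calls of these genes ended. Their differences were then -0.34 for CD52, -0.50 for GATA2 and -0.24 for ICAM5.

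The CD52 call at 16 nM ended without any 1 of the 4 libraries compared (adjusted p = 0.105 to 0.208), and so did its step between the doses (adjusted p = 0.108 to 0.217). The call also ended with equal sums per library (adjusted p = 0.0514), and the step with equal sums (adjusted p = 0.0724) or no filter on low values (adjusted p = 0.0598). That of GATA2 at 16 nM ended without either DAC 16 nM library or DMSO replicate 2 (adjusted p = 0.135 to 0.418), with no filter (adjusted p = 0.0533), with equal sums (adjusted p = 0.0557) and with day 4 libraries alone (adjusted p = 0.138), while its step of 1.70 ± 0.29 to 80 nM held. That of ICAM5 at 16 nM ended without DAC 16 nM replicate 2 or either DMSO library (adjusted p = 0.0661 to 0.113), and its step without DAC 80 nM replicate 2 (adjusted p = 0.0672). With a pseudocount of 1 the ICAM5 differences were -0.84 and 0.88, short of a call.

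Genes of proliferation were not called. By limma none of 34 tested mitosis genes was called at either dose, with 6 higher and 0 lower at unadjusted p below 0.05 at 16 nM, and 0 higher and 14 lower at 80 nM. The medians were 0.14 and -0.20. In the direct test of 80 nM against 16 nM all 34 differences were negative, with a median of -0.34, beside a median of -0.08 over genes with a mean FPKM of at least 5. None was called, and 27 were lower at unadjusted p below 0.05. For 35 genes of DNA replication the medians were 0.07 and -0.22, again with no call (0 higher and 1 lower, then 0 higher and 11 lower, at unadjusted p below 0.05). Of 32 tested p53 targets 1 was called higher at 16 nM (PLK2) and 2 at 80 nM (PLK2 and SPATA18), with medians of 0.28 and 0.16. At unadjusted p below 0.05 by limma, 15 were higher and 0 lower at 16 nM, and 15 and 1 at 80 nM. MDM2, the ubiquitin ligase of p53, read 118 and 120 FPKM in DMSO, 146 and 179 at 16 nM, and 166 and 193 at 80 nM, a difference of 0.58 ± 0.14 at 80 nM. SPATA18 read 0.296 and 0.492, then 0.801 and 0.779, then 1.49 and 2.25.

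The transcripts of the drug's target and of its handling were not called. DNMT1 read 128 and 141 FPKM in DMSO, 122 and 128 at 16 nM, and 117 and 122 at 80 nM, differences of -0.10 ± 0.09 and -0.17 ± 0.09. UHRF1, which recruits DNMT1 to hemimethylated DNA, read 148 and 137, then 142 and 140, then 123 and 97.4. DNMT3A read 8.86 and 9.31, then 6.99 and 6.30, then 6.34 and 5.77, a difference of -0.55 ± 0.16 at 80 nM. DNMT3B lay between 3.65 and 4.56 in these groups. DCK, the kinase that activates decitabine, read 37.9 and 35.6, then 37.9 and 39.0, then 34.0 and 34.1. CDA, the deaminase that inactivates it, was low, at 0.271 and 0.0991, then 0.613 and 0.571, then 1.01 and 0.604. Its DAC libraries lay above those of DMSO, but differences of 0.68 and 0.92 were below the size required for a call. The authors' deposited log2 fold changes for CDA were 1.62 and 2.07. By limma no call fell among 21 genes of DNA methylation (1 higher and 2 lower at 16 nM, and 3 and 4 at 80 nM, at unadjusted p below 0.05) or 20 of decitabine metabolism (2 and 0, then 3 and 6). Of all 22007 genes tested, 2133 were at that p at 16 nM and 4613 at 80 nM, in either direction.

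**Figure D4:**
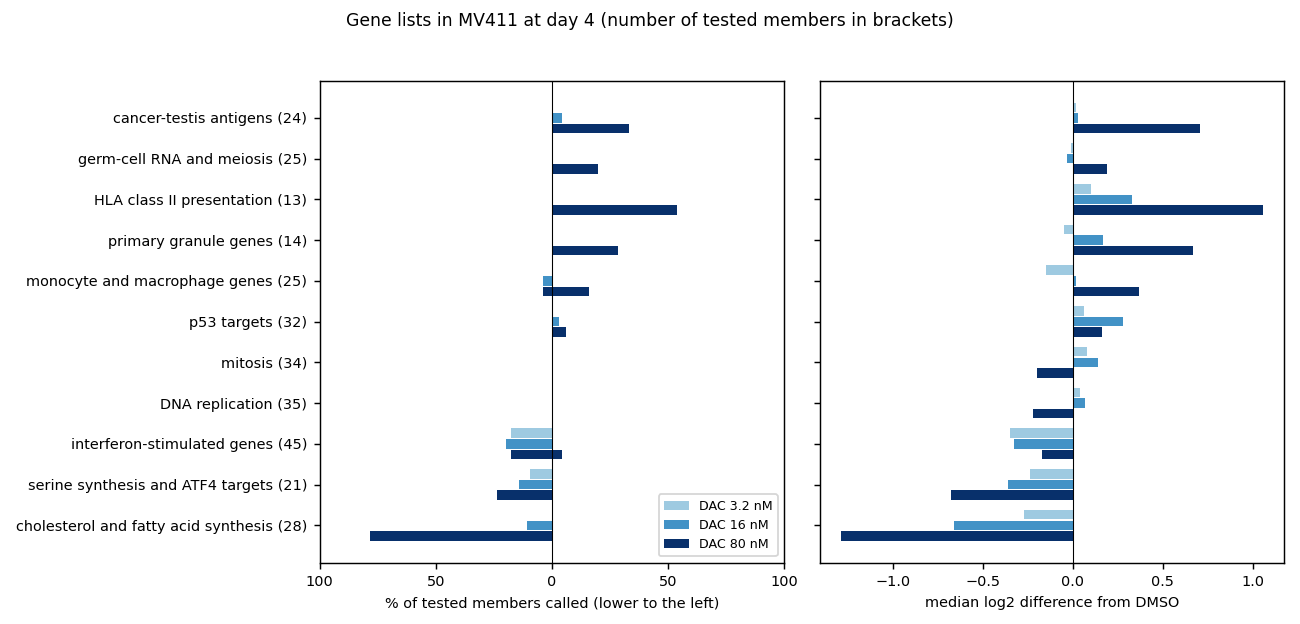
Share of the tested members of 11 gene lists called higher (right) or lower (left) than DMSO, and median log2 difference of each list, at 3.2, 16 and 80 nM DAC on day 4. Cancer-testis and HLA class II genes are called mainly at 80 nM, lipid synthesis reaches 22 of 28 lower at 80 nM, and the 9, 8 and 8 interferon-stimulated genes lower at 16, 80 and 3.2 nM do not follow the dose.

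Compared with GSK032 at the same dose and day, DAC at 16 nM gave 10 higher calls (0.0454%) and 24 lower (0.109%). The count ran from 17 without DAC 16 nM replicate 2 to 52 without GSK032 16 nM replicate 1, and was 22 without DAC 16 nM replicate 1 and 24 without GSK032 16 nM replicate 2. The balance rested on single libraries, with 14 higher and 8 lower without DAC 16 nM replicate 1, 9 and 8 without its replicate 2, 7 and 45 without GSK032 16 nM replicate 1, and 6 and 18 without its replicate 2. Scaled to equal sums per library, 6 were higher and 29 lower. ALDH1A3 read 7.71 and 7.72 FPKM with DAC and 1.96 and 2.41 with GSK032, a difference of 1.62 ± 0.21 (adjusted p = 0.00022). CHI3L1 read 20.4 and 20.7 against 7.73 and 9.84 (1.19 ± 0.15), and MYBPH 96.8 and 111 against 36.9 and 49.6 (1.26 ± 0.20). GRIP1 was lower with DAC, at 4.68 and 4.97 against 20.9 and 14.4 (-1.75 ± 0.26). At 16 nM these genes thus stood apart between the compounds by more than the spread of the libraries.

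At 80 nM DAC gave 22 higher calls (0.1%) and 126 lower (0.573%) than GSK032. The higher calls numbered 47 without DAC 80 nM replicate 1 and 8 without GSK032 80 nM replicate 2, and the lower calls 96 to 172 without any 1 of the 4 libraries. Scaling to equal sums raised this to 20 higher and 331 lower and moved the median of genes with a mean FPKM of at least 5 from 0.07 to -0.23. The genes named here kept their calls under that scaling. Of the 28 lipid synthesis genes 18 were lower with DAC and none higher, with a median of -1.17. SCD read 30.4 and 21.9 FPKM with DAC and 131 and 116 with GSK032, a difference of -2.23 ± 0.24 (adjusted p = 1.7e-06). HMGCS1 read 19.2 and 18.3 against 102 and 96.4 (-2.37 ± 0.29), and DHCR7 6.25 and 3.50 against 34.6 and 26.3 (-2.56 ± 0.34). FADS2 read 30.7 and 20.5 against 139 and 108 (-2.26 ± 0.34), and INSIG1 47.8 and 41.1 against 180 and 157 (-1.91 ± 0.25). The GSK032 libraries of these genes lay close to those of DMSO.

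Of the 21 genes of serine synthesis and ATF4 targets, 4 were lower with DAC than with GSK032 at 80 nM (ATF5, DDIT4, TRIB3 and SLC7A11) and none higher, with a median of -0.17. TRIB3 read 4.75 and 4.64 FPKM against 27.6 and 22.1 with GSK032 (-2.28 ± 0.30). Of genes outside that list, C6orf223 read 0.496 and 0.422 against 9.18 and 7.77 (-3.22 ± 0.39). MIR210HG, the host gene of a hypoxia-linked miRNA, read 0.326 and 0.488 against 9.44 and 8.18 (-3.36 ± 0.63), and IFIT2 0.132 and 0.140 against 1.35 and 1.37 (-1.55 ± 0.24). TRIB3 and C6orf223 climbed in DMSO from day 2 to day 6, and IFIT2 at 80 nM differed from DMSO of day 2 by only 0.11. For these 3 genes an effect of the compounds and a different state of the cultures cannot be told apart. ALDH1A3 was higher with DAC, at 11.7 and 11.6 against 3.21 and 4.65 (1.48 ± 0.21), as was RHBDL3, a rhomboid-like membrane protein, at 7.25 and 6.34 against 2.21 and 2.40 (1.38 ± 0.16).

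Of 24 cancer-testis genes 1 was called between the compounds at 80 nM (PAGE5, lower with DAC), and 1 was higher and 5 lower with DAC at unadjusted p below 0.05. TKTL1 read 96.4 and 92.6 FPKM with DAC and 150 and 147 with GSK032, a difference of -0.65 with a 95% interval of -1.30 to 0.01. MAGEA4 read 56.1 and 49.7 against 99.4 and 75.8, a difference of -0.71 with an interval of -1.18 to -0.24 (adjusted p = 0.094). PRAME read 4.65 and 4.55 against 5.07 and 5.43 (interval -0.52 to 0.17), and TERT 0.746 and 0.741 against 0.896 and 0.673 (interval -0.50 to 0.41). Mitosis genes had a median of 0.30 above GSK032 with no call by limma (28 higher and 0 lower at unadjusted p below 0.05). The 32 p53 targets had a median of 0.45, also with no call by limma (22 higher and 0 lower at unadjusted p below 0.05). Over all 22007 genes tested, 3495 were at unadjusted p below 0.05 in this comparison, in either direction. It is the comparison whose median moved by the scaling above.

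**Figure D5:**
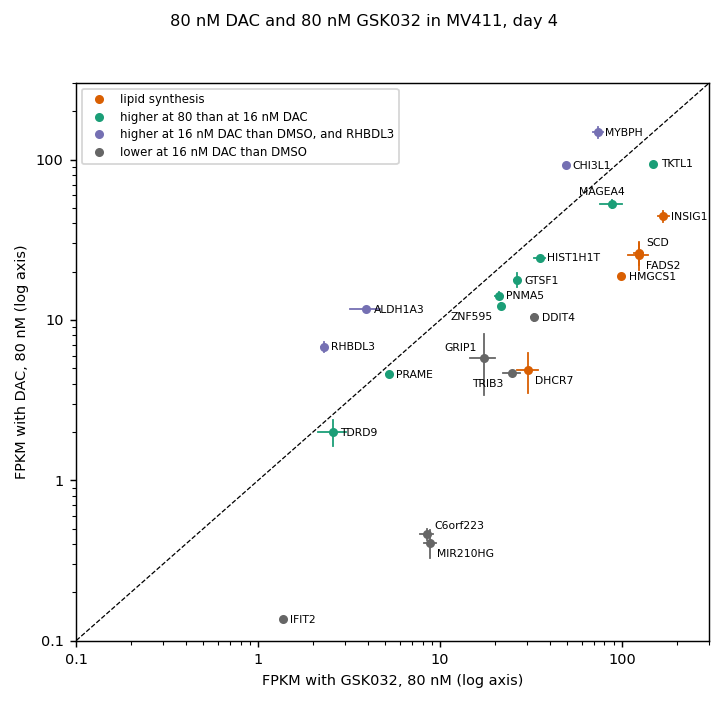
Mean FPKM with 80 nM DAC (vertical) against 80 nM GSK032 (horizontal) on day 4, both on log axes, for named genes, with lines spanning the 2 libraries and a dashed line of equality. Lipid synthesis genes and TRIB3, C6orf223, MIR210HG and IFIT2 lie below the line, ALDH1A3 and RHBDL3 lie above it, and germline genes lie near it on the lower side.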

How the data were processed

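RNA-seq of MV411 cells was used as the FPKM table that the authors deposited, 1 column per library, and the authors' deposited log2 fold changes against DMSO were read only for comparison. The submitters' processing notes name Salmon 0.12.0, DESeq2 and the hg38 build. How FPKM was computed, and whether strand was used, is not given in the sources used here. All 52 MV411 libraries (26 groups of 2) entered 1 linear model of log2(FPKM + 0.5), with the log taken here from the deposited FPKM, fitted by limma 3.58.1 (R 4.3.3) with 1 mean per group, 26 residual degrees of freedom and a variance trend. Genes at an FPKM of 1 or more in at least 2 libraries were tested (22007), with Benjamini-Hochberg adjustment over them. Sharing the spread over all groups assumes that each group of 2 varies like the others. The 6 comparisons were DAC at 3.2, 16 and 80 nM against DMSO, 80 nM against 16 nM, and DAC against GSK032 at 16 and 80 nM, all on day 4.

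No library held the same values as another. Library sums of FPKM differ, so the values were not scaled to equal sums. The files used hold no counts. From 9851 genes with 1 transcript of 800 to 6000 bases, 69.7 to 74.9% of low values lay within 0.15 of whole fragments (30% by chance), which gave the scale of each library. Counts could not be recovered for most genes, so no count model was run and no counting interval is given. A replicate number could not be given to 4 of the columns, those of day 4 GSK862 and GSK477. The method was tested on simulated data.

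The members, gene lists and naming rule were chosen with earlier results of these data known. The rule named genes with a symbol, a length of at least 300 bases and, in the higher group, a mean of 1 FPKM or more. It took the 12 largest calls in each direction at 16 and 80 nM, the 5 largest in each direction of the other comparisons, up to 4 called members of each list and direction, up to 3 uncalled members as values, the genes of DNMT1 biology and decitabine metabolism, and genes that turned between the doses. Of these, the text describes mainly genes whose calls held under the alternatives named at the end of this paragraph. GENCODE 29 held 56511 of the 59939 identifiers. Promoters were found for 48.0% of the genes tested, too few for a comparison of CG content between gene sets, which is void. Alternatives covered the pseudocount, the filter, the libraries fitted, scaling, a replicate block and leaving out each library.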

Additional observations from a re-analysis of the deposited data

How the results depend on the processing

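Of 1414 values of named genes under other pseudocounts, filters, sets of libraries and scalings, the block and left-out libraries 1389 kept their call and none turned. The 25 that lost it belong to TKTL1 at 16 nM and to CD52, GATA2 and ICAM5. The text describes mainly genes whose calls held under these same alternatives, so the share kept was largely set by that choice. Counts of calls moved by more than 1.5 times as follows, and the cause was not tested. With a pseudocount of 0.1, 80 nM against DMSO gave 891 calls in place of 541 and 80 nM against 16 nM gave 437 in place of 231, and with a pseudocount of 1 the latter gave 147. For 3.2 nM against DMSO (51 calls) a filter at an FPKM of 5 gave 31 and day 4 libraries of DAC, DMSO and GSK032 alone gave 14. For DAC against GSK032 at 16 nM (34 calls) a pseudocount of 1 gave 20, no filter 19, a filter at 5 gave 19 and day 4 libraries alone 17. At 80 nM (148 calls) equal sums gave 351.

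Leaving out 1 library at a time gave 74 to 106 calls for 16 nM, 477 to 644 for 80 nM, 26 to 38 for 3.2 nM, 185 to 331 for 80 nM against 16 nM, 17 to 52 for DAC against GSK032 at 16 nM and 129 to 202 at 80 nM. The group left with 1 library was assumed to vary like the others.

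The replicate block, with the 4 unnumbered libraries left out, gave 110 calls for 16 nM, 543 for 80 nM, 43 for 3.2 nM, 238 for 80 nM against 16 nM, and 33 and 154 against GSK032. Deviations of same-numbered libraries correlated at 0.15, 0.59, 0.21, 0.19, 0.37 and 0.47 over 10735 genes. With 2 numbers they share a number only.

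Other references were chosen after seeing the data. From DAC 3.2 nM, 16 nM gave 11 calls. From DMSO of day 2, 16 nM gave 199 (163 higher, 36 lower), 80 nM 1173 (198 of them lower) and 3.2 nM 195 (181 higher, 14 lower), of which 33, 368 and 4 were called against DMSO of day 4. Of 240 values of named genes under these references or without genes under 300 bases 192 kept their call, 30 lost it and 18 turned. Those that turned, from 3.2 nM, were at 16 nM 0.01 for IFIT1, 0 for IFIT3, 0.09 for OAS1, 0.05 for CD52 and 0.37 for GATA2, and at 80 nM 0.10 for IFIT2, 0.09 for OAS1 and 0.39 for DDIT4. From DMSO of day 2 they were, at 16 nM, 0.16 for IFIT1, 0.08 for IFIT3 and 0.10 for OAS1; at 80 nM, 0.15 for IFIT1, 0.11 for IFIT2, 0.03 for IFIT3 and 0.10 for OAS1; and at 3.2 nM, 0.15 for IFIT1, 0.01 for IFIT2 and 0.08 for IFIT3. Calls that ended from DMSO of day 2 included, at 80 nM, LYZ (0.39), ELANE (0.57), PRTN3 (0.87), PLK2 (0.99) and DDIT4 (-0.39). At 16 nM they included MNDA (0.77), PLK2 (0.70), DDIT4 (-0.95), CD52 (-0.34), GATA2 (-0.50) and ICAM5 (-0.24).

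Groups of 2 libraries limit the precision, and without counts the noise of genes near 0.5 FPKM is not known.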
